A study of Mus musculus with 6 samples.

Results

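The synaptic vesicle and release machinery was followed through 48 named genes of the 26852 genes listed for the E14.5 midbrain, and every one of them could be measured. The genes were listed by name and role, with earlier results of these data known and with Cadps2 named separately, and comprise SNARE proteins, their binders and recycling factors, calcium sensors, vesicle membrane proteins, synapsins, Rab3 proteins, active zone scaffolds and priming factors. RNA was sequenced from 3 Lmx1b cKO libraries (Lmx1b fl/fl;Pitx3-Cre) and 3 control libraries (Lmx1b wt/wt;Pitx3-Cre) on a C57Bl/6 background (C57BL/6J in the study's methods), and the question was what changes in the midbrain when Lmx1b, a LIM homeobox transcription factor of dopaminergic neurons, is removed. Controls carried the Cre as well, which the study's methods give as Pitx3Cre/+ in both groups. The RNA of 2 embryos was pooled for each library, so that single animals cannot be seen. Cre was driven from Pitx3, and therefore acts in mesodiencephalic dopaminergic (mdDA) neurons, while the RNA was taken from dissected midbrains. The RNA therefore comes from cells with and without Cre, and in such bulk tissue fewer cells of a type cannot be told apart from less RNA per cell.

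A neuron releases transmitter when a vesicle fuses with the membrane of the nerve ending. VAMP on the vesicle zips up with syntaxin and SNAP-25 on the membrane into the SNARE complex, complexins and tomosyn bind the SNAREs, and synaptotagmins sense the calcium that triggers fusion. NSF and its SNAP adaptors then take the complex apart, while RIM, Bassoon, Piccolo and ELKS proteins build the release site and Munc13 and CAPS proteins prime vesicles before fusion. CAPS proteins act above all on dense core vesicles and have been linked to the loading of monoamine vesicles, of which dopamine vesicles are an example.

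Values are normalized counts, meaning the reads of a gene after division by the size factor of the library. The libraries held between 28904384 and 34975570 reads on the genes whose counts per library could be recovered. The deposited table gives values per group and not per library, and the counts of the single libraries were recovered from its group means. The recovered libraries keep their genotype but not their sample number, so they are named replicate a, b and c in order of falling size factor, and the same letter in both groups marks no pair. All 10 pan-neuronal markers and all 10 mdDA markers had reads in every library. Lmx1b itself had 1257, 1401 and 1455 normalized counts in the cKO and 1368, 1352 and 1474 in controls (log2 fold change -0.03, SE 0.0743). The groups overlapped, so the total of the targeted gene did not show its deletion and does not check the labels, and the groups are named as labelled. Reads per exon were not analysed here, and how much of this total came from cells without Cre was not tested.

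CAPS1, made by Cadps, and CAPS2, made by Cadps2, are the pair of priming factors on which the largest difference of the set turns, and the 250 bases upstream of each start are shown because the 2 genes differ in sequence there as well as in level. Both are read 5′ to 3′ on the minus strand of GRCm38.p6 from RefSeq (Cadps at chr14:12823080-12823329 and Cadps2 at chr6:23839422-23839671), with each CG in capitals.
Cadps: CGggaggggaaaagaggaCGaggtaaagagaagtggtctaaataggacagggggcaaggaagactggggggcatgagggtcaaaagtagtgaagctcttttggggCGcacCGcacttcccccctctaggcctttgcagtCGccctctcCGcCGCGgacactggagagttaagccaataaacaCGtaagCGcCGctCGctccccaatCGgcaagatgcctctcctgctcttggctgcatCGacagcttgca
Cadps2: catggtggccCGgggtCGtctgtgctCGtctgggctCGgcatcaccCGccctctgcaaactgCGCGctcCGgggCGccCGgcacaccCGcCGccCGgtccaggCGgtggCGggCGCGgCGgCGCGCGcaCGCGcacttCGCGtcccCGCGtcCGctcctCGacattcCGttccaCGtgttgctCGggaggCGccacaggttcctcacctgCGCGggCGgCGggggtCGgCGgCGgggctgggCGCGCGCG
The Cadps2 sequence was 78.0% G or C with 44 CG dinucleotides, and that of Cadps 58.0% with 14. Neither held TAATTA, the core bound by many homeodomain proteins, or the cAMP response element TGACGTCA. Promoters of 300 bases, 250 before and 50 after a start, were listed for 37 of the 48 genes, and only the 250 before were used. TAATTA, which reads the same on both strands, was found in 2.13% of their 47 promoters (Syt6 alone) against 4.84% of all 32851, and TGACGTCA, also the same on both strands, in 2.13% (Syn1 alone) against 1.55%. The 2 motifs do not overlap each other, and the median G and C content was 61.2% for the set and 52.4% for all promoters.

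None of the 48 release genes differed between Lmx1b cKO and control midbrain after correction for multiple testing. Across the 17168 genes tested with limma, 0% passed an adjusted p-value of 0.05, so the count of 0 among release genes is that of the whole table. Without correction 2.75% of all genes had a p-value under 0.05, 1.6% lower and 1.15% higher in the cKO. Among the release genes this was 1 of 48 (2.08%), Cadps2, which was lower in the cKO. For 2 of 48 genes (4.17%) cKO and control libraries were fully separated, Cadps2 with every cKO library below and Cplx2 with every cKO library above the controls, beside 3.69% of all genes below and 3.87% above. Neither share stands out from that background. The median log2 fold change was 0.01 for the release genes and 0.00 for all genes tested, with 18 release genes lower and 30 higher in the cKO by the sign of the fitted, weighted log2 fold change. Doc2a, Bsn and Pclo, fitted at 0.01, 0.00 and 0.00, count as higher there although their plain cKO means were slightly below the control means.

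**Figure D1:**
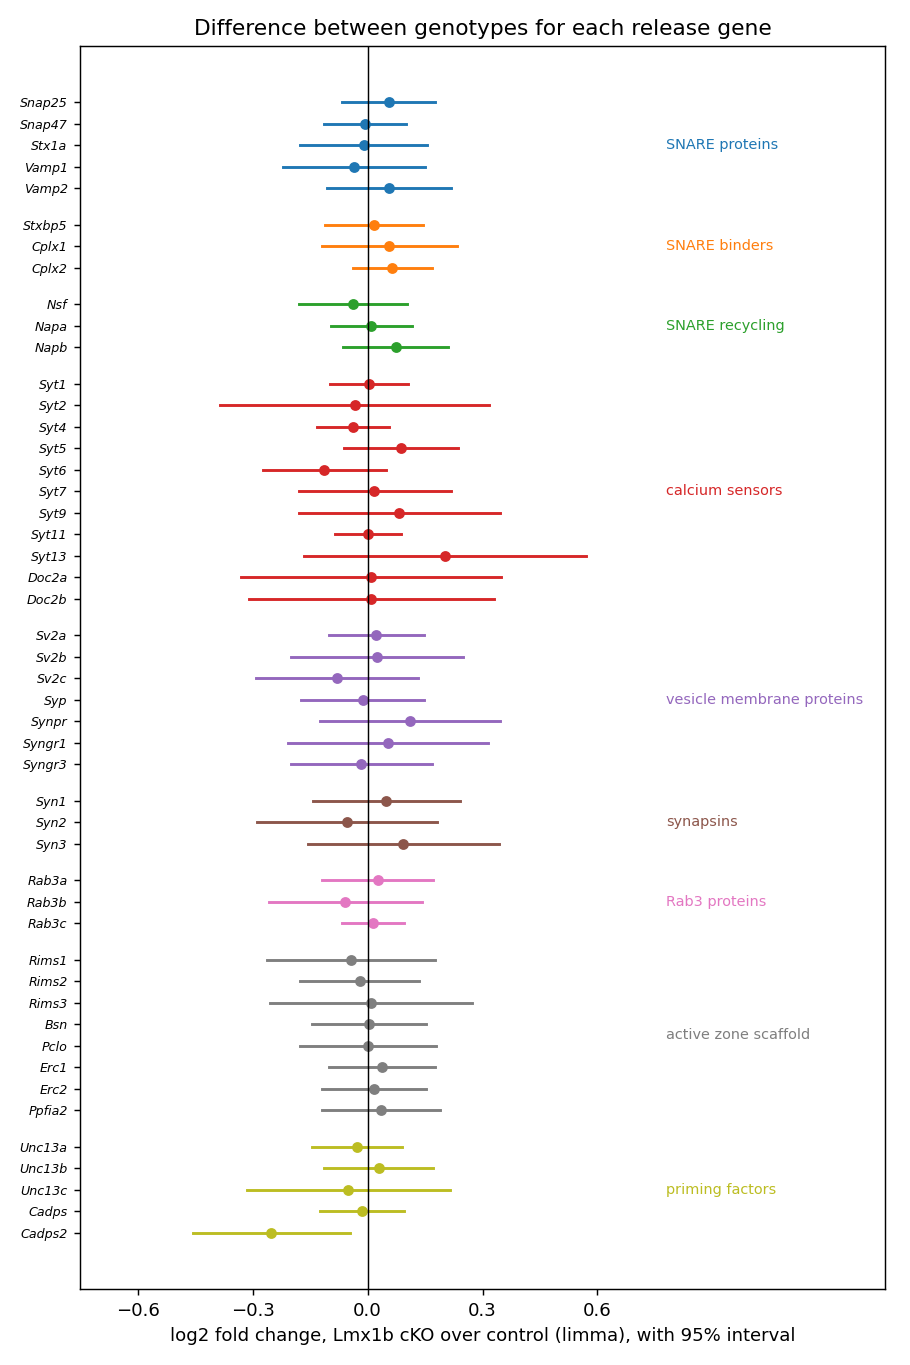
Log2 fold change of each of the 48 release genes, cKO over control (horizontal axis), with its 95% interval as a line and genes grouped by role. Points range from -0.25 for Cadps2 to 0.20 for Syt13, and the Cadps2 interval is the only one that leaves out 0, before any correction for multiple testing.

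The intervals say how large a difference could have gone unseen. All 48 of the 95% intervals, taken gene by gene, lay within a 1.5-fold difference in either direction and 34 within 1.2-fold. The 14 genes that reached beyond 1.2-fold were Syt2, Syt6, Syt9, Syt13, Doc2a and Doc2b among the sensors, Sv2c, Synpr and Syngr1 among the vesicle membrane genes, the synapsins Syn2 and Syn3, and Rims3, Unc13c and Cadps2. The lowest bound was a log2 fold change of -0.46 for Cadps2 and the highest 0.57 for Syt13. A change limited to Cre-positive neurons would be diluted in these totals, by an amount that was not measured.

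Among the priming factors, Cadps2 was measured at 678, 599 and 685 normalized counts in the cKO and at 843, 741 and 747 in controls. Every cKO library was thus below every control library, with the highest cKO value close to the lowest control value. The gene lies on the minus strand of chromosome 6 (chr6:23262773-23839421, GRCm38), and no other annotated gene shares its exons. Its means were 654 ± 47.8 in the cKO and 777 ± 57.4 in controls (SD, n = 3), a log2 fold change of -0.25 (SE 0.0932; limma p = 0.02 uncorrected and 1 adjusted; exact permutation p = 0.1, two-sided). The latter is the smallest p that 3 against 3 libraries allow. Without cKO replicate b, or without control replicate a, which held the highest value of all 6, the log2 fold change was -0.19 and the uncorrected limma p was above 0.05.

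Its paralogue Cadps, the most abundant priming factor per kilobase of exon, showed 9186, 8189 and 8691 normalized counts in the cKO and 8758, 8574 and 8981 in controls. These ranges overlapped, with the highest and the lowest library both in the cKO group (log2 fold change -0.01, SE 0.0501). Per kilobase, Cadps was 7.76 times as abundant as Cadps2 over all libraries. Cadps2 made up 10.4%, 10.3% and 11% of the sum of both genes per kilobase in the cKO and 13.1%, 12.0% and 11.6% in controls. Each cKO share lay below each control share (10.6% ± 0.388 against 12.2% ± 0.821, SD, n = 3; exact permutation p = 0.1, the smallest possible). This share follows from the difference of Cadps2 itself and is no separate evidence. Of 14 families compared in this way, 4 had a fully separated share, the others being Snap47 with Snap25, Sv2a and Syn2, and the smallest adjusted p over all 40 shares was 0.667 (exact permutation tests, Benjamini-Hochberg). The Munc13 genes Unc13a, Unc13b and Unc13c, whose products open syntaxin for SNARE assembly, had log2 fold changes of -0.03, 0.03 and -0.05, all with overlapping groups.

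**Figure D2:**
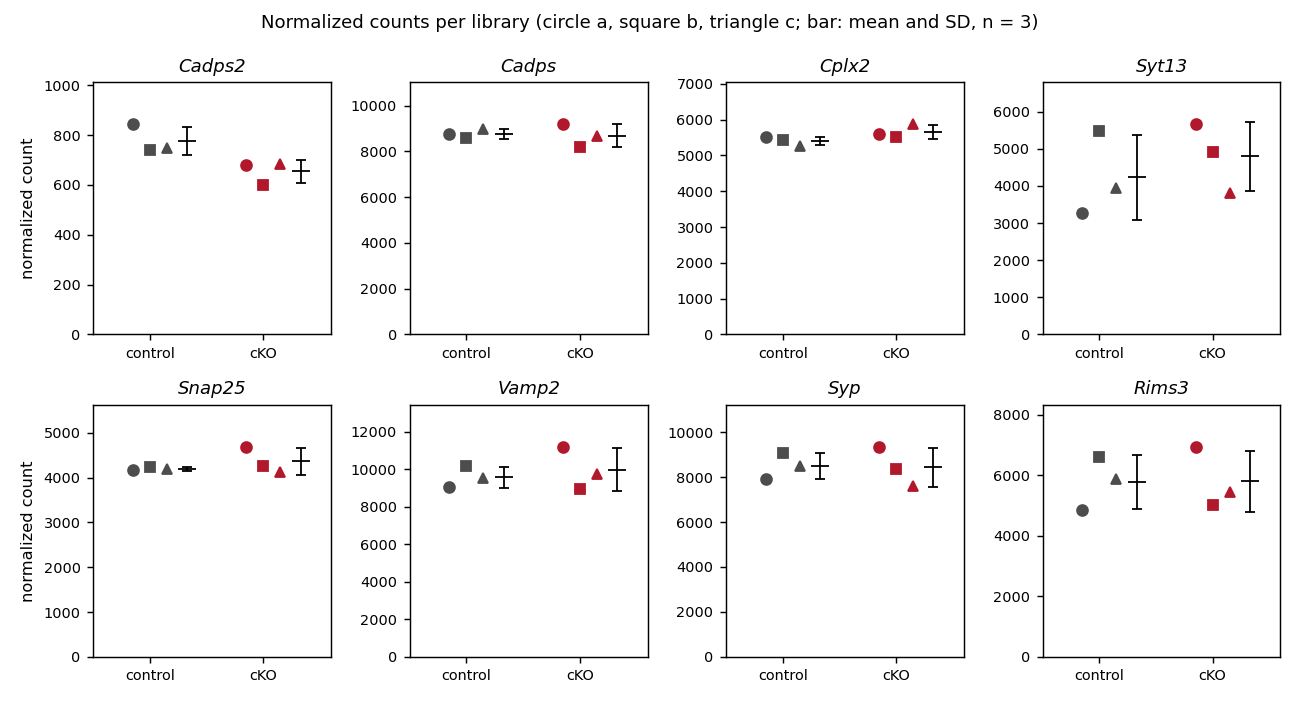
Normalized counts (vertical axes, starting at 0) of 8 release genes in each control and cKO library, with the mean and SD of 3 libraries at the right of each group. For Cadps2 the cKO libraries lie at 599 to 685, below controls at 741 to 843, while the groups overlap for Cadps, Syt13, Snap25, Vamp2, Syp and Rims3.

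The complexins clamp and support the SNARE complex until calcium arrives. Cplx2, the more abundant of the pair per kilobase, had 5589, 5520 and 5870 normalized counts in the cKO and 5515, 5427 and 5279 in controls. The groups did not overlap, yet the lowest cKO library was only just above the highest control library. The difference was small, 5659 ± 185 against 5407 ± 119 (SD, n = 3) and a log2 fold change of 0.06 (SE 0.0469; limma p = 0.195; exact permutation p = 0.1). With upper quartile scaling, or with total reads as the library size, the groups overlapped for Cplx2 and stayed apart for Cadps2. Cplx1 (log2 fold change 0.06) and Stxbp5, which makes the SNARE binder tomosyn (0.02), overlapped between the groups.

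The SNARE genes themselves were close to equal in RNA level in both genotypes. Snap47, a SNAP-25 relative and the most abundant SNARE gene per kilobase, had 9049, 8537 and 8201 normalized counts in the cKO and 8452, 8541 and 8927 in controls, and the groups overlapped fully. Of its exon bases, 11.6% are shared with Jmjd4 on the other strand. Snap25, the SNARE of the nerve ending membrane, had 4689, 4263 and 4129 in the cKO and 4163, 4239 and 4183 in controls, so that cKO replicate a alone stood above the rest. Stx1a, Vamp1 and Vamp2 had log2 fold changes of -0.01, -0.04 and 0.06, and the smallest limma p of the 5 SNARE genes was 0.337. Of the recycling factors, Napa, which makes the adaptor alpha-SNAP, was the steadiest of all 48 genes, with 3018, 2991 and 2988 in the cKO and 2969, 2955 and 3016 in controls. The highest library was 1.02 times the lowest, and the log2 fold change was 0.01 (SE 0.0485). Nsf, the ATPase that separates used SNARE complexes, had a log2 fold change of -0.04, and Napb, which makes beta-SNAP, 0.07.

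Of the 11 genes listed as calcium sensors none had a limma p under 0.05, and by the fitted sign 3 were lower and 8 higher. Syt4, a synaptotagmin found on dense core and Golgi-derived vesicles, was together with Snap47 the most abundant release gene per kilobase (Syt4 was the higher in 3 of 6 libraries), with 13040, 12064 and 12507 normalized counts in the cKO and 12980, 12734 and 12897 in controls. The control libraries fell inside the cKO range, and part of the exon bases is shared with Gm26658 on the other strand. Syt1, the main sensor for fast release in forebrain neurons, had 8413, 8129 and 7992 in the cKO and 7940, 8535 and 8023 in controls (log2 fold change 0.00, 95% interval -0.10 to 0.11). The highest library was a control and so was the lowest.

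Syt13, a synaptotagmin whose C2 domains are not thought to bind calcium, was the most variable release gene. It had 5659, 4905 and 3822 normalized counts in the cKO and 3272, 5491 and 3935 in controls, a 1.73-fold range within which both genotypes were scattered. Its log2 fold change of 0.20 (SE 0.168; limma p = 0.252; exact permutation p = 0.6) did not exceed the spread between libraries. Without control replicate b, which held the highest control value, the log2 fold change was 0.41 and the uncorrected limma p was under 0.05, but not the adjusted p. The other genes listed as sensors ran from -0.11 for Syt6 to 0.09 for Syt5, with Syt2, Syt7, Syt9, Syt11, Doc2a and Doc2b between them. Doc2a shares 39.4% of its exon bases with Ino80e on the other strand. An overlap of this kind was annotated for 18 of the 48 release genes, among them Ppfia2 (24.5%), Syp (16.8%) and Syn3 (14.1%, with Timp3), and as the use of strand in counting was not stated their levels may include reads of the partner gene.

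Among the genes for proteins that sit in or on the vesicle, none had a limma p under 0.05. The intervals of Sv2c, Synpr, Syngr1, Syn2 and Syn3 reached beyond a 1.2-fold difference, so smaller differences in these genes could have gone unseen. Sv2a, a transporter-like glycoprotein of synaptic vesicles, had 12301, 10799 and 11439 normalized counts in the cKO and 10735, 11931 and 11362 in controls, and these ranges overlapped almost fully. The other vesicle membrane genes had log2 fold changes from -0.08 for Sv2c to 0.11 for Synpr, with Sv2b, Syp, Syngr1 and Syngr3 between them. Syn1, whose product ties vesicles to actin in the reserve pool, had 6239, 4932 and 5138 in the cKO and 4771, 5683 and 5315 in controls, with cKO replicate a above all others. Syn2 and Syn3 had log2 fold changes of -0.05 and 0.09. Rab3c, a small GTPase that guides vesicles to the release site, was the release gene with the most reads, at 28069, 28854 and 29310 normalized counts in the cKO and 27686, 29117 and 28614 in controls. Its log2 fold change was 0.01 (SE 0.0376), and those of Rab3a and Rab3b were 0.03 and -0.06.

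The active zone scaffold differed little between the genotypes. Its 8 genes ran from -0.04 for Rims1 to 0.04 for Erc1 on the log2 scale, with Rims2, Rims3, Bsn, Pclo, Erc2 and Ppfia2 between them, and the smallest limma p was 0.567. Rims3, a short RIM protein, had the highest mean of these genes per kilobase but exceeded Erc2 in only 4 of 6 libraries, with 6944, 5032 and 5436 normalized counts in the cKO and 4858, 6612 and 5883 in controls. One library in each group, cKO replicate a and control replicate b, lay at 6612 or above while the rest lay at 5883 or below, so the spread within each genotype was far larger than the difference of their means (log2 fold change 0.01, SE 0.121).

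That spread between libraries was shared by most of the set. Replicate a of the cKO held the highest value for 34 of the 48 release genes (70.8%), whereas it did so for 20.9% of the 11037 genes within the same range of mean counts. Replicate a of the controls held the lowest value for 24 (50%), against 20.5% of those genes. The median deviation of the release genes from their mean over 6 libraries was, on the log2 scale, 0.11 in cKO replicate a, -0.07 in b and -0.05 in c, beside -0.09, 0.08 and 0.02 in controls a, b and c. High and low libraries thus occurred in both genotypes. The 9 genes highest in control replicate b were Stx1a, Syt1, Syt2, Syt11, Sv2c, Syn3, Rims2, Bsn and Unc13a. Cplx2, Rab3c and Unc13b were highest in cKO replicate c, and Syt6 and Cadps2 in control replicate a.

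**Figure D3:**
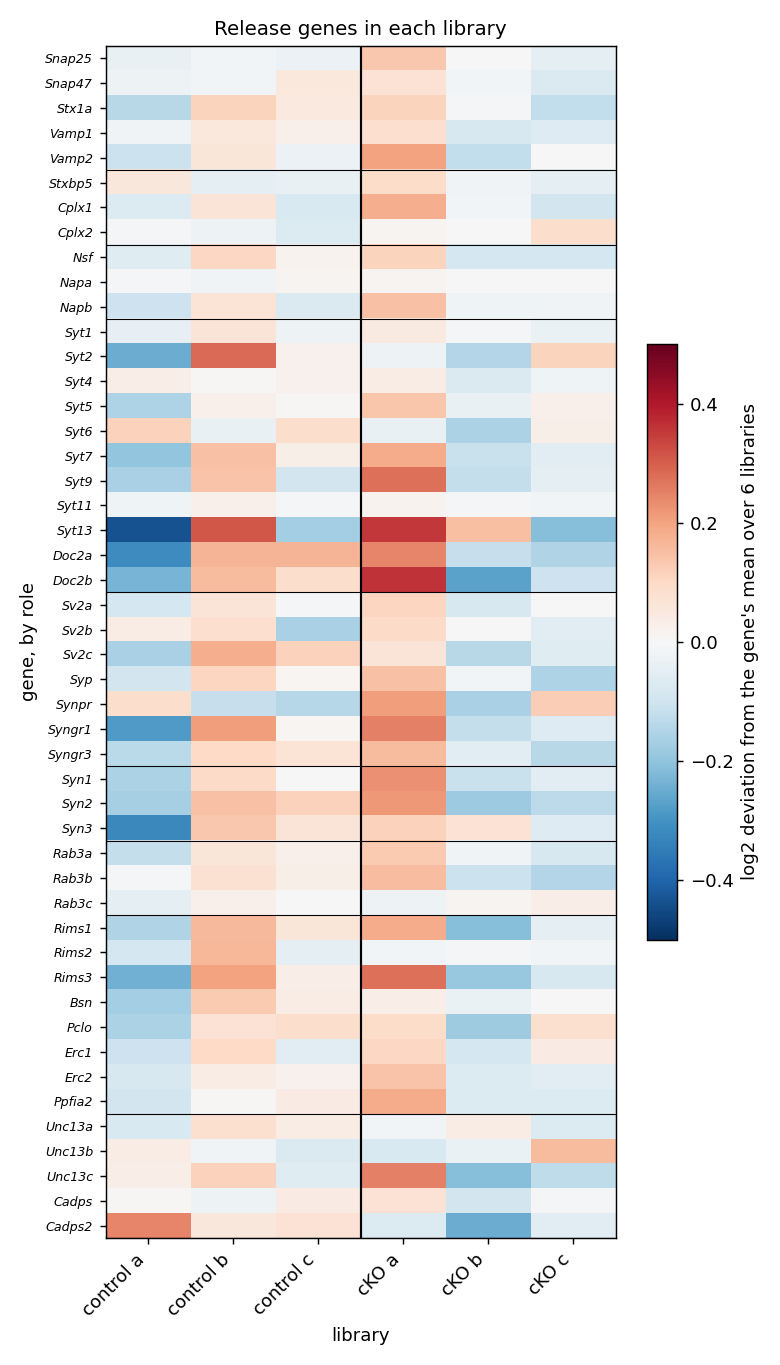
Log2 deviation of each release gene (rows, ordered by role) from its own mean over the 6 libraries (columns, controls left of the line and cKO right of it), red above and blue below the mean. The columns of cKO replicate a and control replicate b are mostly red (41 and 39 of 48 genes above their mean) and those of cKO replicate b, control replicate a and cKO replicate c mostly blue (5, 9 and 12 of 48), while Cadps2 in the bottom row runs against this in control replicate a and cKO replicate a.

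Markers of cell types moved with these libraries. The 10 neuron markers summed to 307749 normalized counts in cKO replicate a and to between 293877 and 299753 in the other 5 libraries, with control replicate b second. The 10 radial glia and cycling progenitor markers ran the other way, from 36163 in cKO replicate a, the lowest, through 40799 in control replicate b to 47463 in control replicate a, the highest. The sum of 7 bone and mesenchyme markers stood apart in another library, at 13997 in cKO replicate c and 2326 in cKO replicate a against 725 to 836 elsewhere, with Lum and Ibsp at 0 in some libraries. The 10 mdDA markers summed to between 10886 and 11269 in the cKO and between 10761 and 12763 in controls, and these sums overlapped. Of the single mdDA markers, 8 of 10 were lower in the cKO, 4 had an uncorrected limma p under 0.05 and the median log2 fold change was -0.20. The 4 serotonergic markers summed to between 2753 and 3179 in the cKO and between 2883 and 3567 in controls, with 3 lower in the cKO, 3 at an uncorrected p under 0.05 and a median log2 fold change of -0.90. Of the progenitor markers 8 of 10 were lower in the cKO and 3 had an uncorrected p under 0.05, with a median of -0.08, and of 6 blood markers 1 was lower and 2 had such a p, with a median of 0.28. Bone and mesenchyme markers gave 1 such p of 7, sensory ganglia 1 of 4, and the neuron, vascular, muscle and choroid plexus markers none. No marker of any list passed the adjusted threshold. The part of these markers in the library pattern and in the difference of Cadps2 was not tested. Without cKO replicate a the median log2 fold change of the release genes was -0.05, and without cKO replicate c, the library with the bone markers, it was 0.03.

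The genes differed in how much they varied within groups. The SD of the log2 values within groups had a median of 0.109 over the release genes and of 0.088 over the genes of similar count. It was smallest for Napa (0.012), Syt11 (0.021), Rab3c (0.034), Cplx2 (0.040) and Syt4 (0.041), for which the highest library was at most 1.11 times the lowest. Syt13 (0.336), Doc2b (0.274), Doc2a (0.250), Rims3 (0.234) and Syngr1 (0.225) varied most. The SD of Cadps2 (0.106) was near the median of the set.

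The forms of each family were ordered by level per kilobase. Levels of different genes were compared as normalized counts per kilobase of merged exons, averaged over the 6 libraries, and the order is a description. Merged exons take in all annotated transcripts, so the order and the folds depend on that length. By mean count alone, Erc1 (7315) exceeded Erc2 (6746) and Syngr1 (3436) exceeded Syngr3 (2810), while the other orders in this paragraph were kept. Vamp2 (2569) was 37.4 times as abundant as Vamp1 (68.6), Sv2a (2463) 19.6 times as abundant as Sv2c, and Rab3a 9.3 times as abundant as Rab3b. The synapsins descended from Syn1 (1620) through Syn2 (385) to Syn3 (80.0), and the Munc13 genes from Unc13a (464) through Unc13b (171) to Unc13c (70.9). Each of these steps was seen in 6 of 6 libraries. Snap47 (3252) exceeded Snap25 (630) by 5.16 times in all 6 libraries, Rims3 (727) exceeded Rims1 (399) and Rims2 (200), and Cplx2 (1122) exceeded Cplx1 (668). Erc2 exceeded Erc1 by 1.54 times, Syngr3 exceeded Syngr1 by 1.9 times and Doc2b exceeded Doc2a by 2.05 times.

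The synaptotagmins spanned the widest range, from Syt4 (3266 per kilobase) and Syt11 (2382) down to Syt2 (32.5), the sensor known from hindbrain and spinal cord synapses and the scarcest release gene of the 48. Between these ends, Syt13 (1200), Syt5 (1058), Syt1 (980) and Syt7 (921) were not clearly separated, since Syt13 exceeded Syt5 in 3 of 6 libraries, and Syt5 exceeded Syt1 and Syt1 exceeded Syt7 in 5 of 6. Syt6 (238) and Syt9 (178) came next. Rab3c and Rab3a, and likewise Napa and Napb, lay within 1.03 and 1.08 times of each other per kilobase and changed places in 1 library each. By mean count alone, Rab3c (28609) exceeded Rab3a (5153), and Napb (5150) exceeded Napa (2990). Syt2, the gene with the fewest reads, was still counted with 211 to 313 reads per library.

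**Figure D4:**
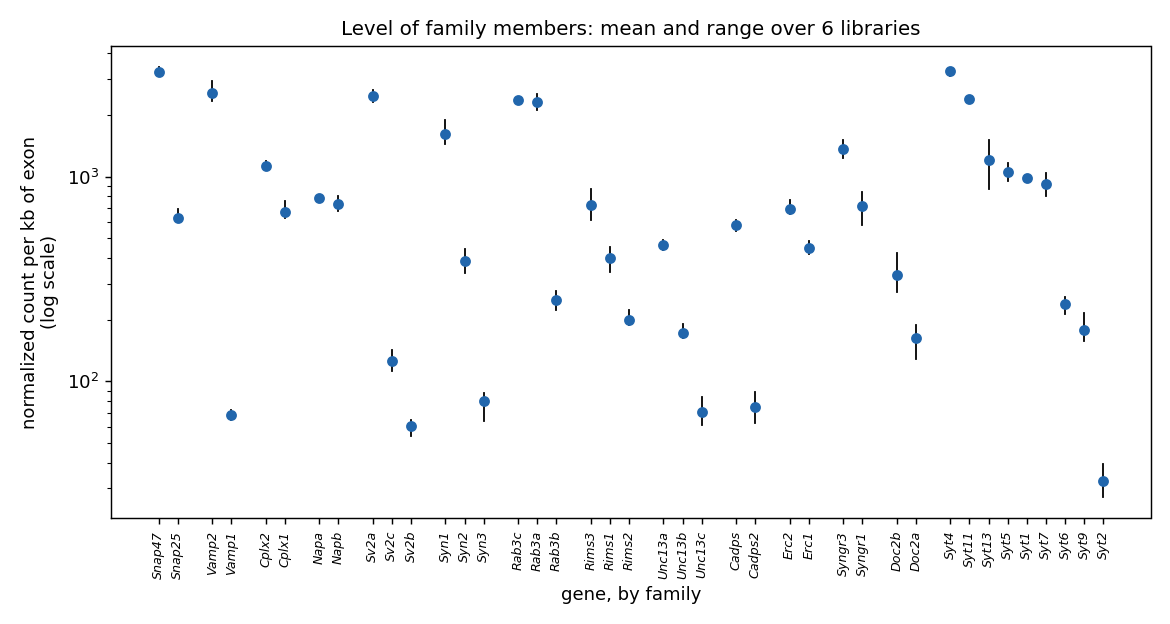
Mean normalized count per kilobase of exon over 6 libraries (points, log axis) and range from the lowest to the highest library (lines) for release genes by family, each family in falling order. Vamp2, Sv2a, Syn1 and Cadps stand 37.4, 19.6, 4.21 and 7.76 times above the next member of their family.

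The wider release pathway was read from 100 further genes listed in the table, of which 93 were abundant enough to test. These were other SNAREs and their binders, other calcium sensors, other vesicle and active zone proteins, vesicular transporters, and the proteins of vesicle endocytosis and of dense core vesicles. None passed an adjusted p-value of 0.05. An uncorrected limma p under 0.05 was seen for 2 of 93 (2.15%, beside 2.75% of all genes), 1 in each direction. Snapin, which makes a SNAP-25 binding protein shared with lysosome transport, had 812, 895 and 863 normalized counts in the cKO and 1011, 939 and 935 in controls (log2 fold change -0.17, SE 0.0777; limma p = 0.0469 uncorrected and 1 adjusted; exact permutation p = 0.1). Slc17a6, the glutamate transporter VGLUT2 of midbrain vesicles, had 6656, 5925 and 5866 in the cKO and 5690, 5813 and 5333 in controls (log2 fold change 0.13, SE 0.0589; limma p = 0.0472 uncorrected and 1 adjusted; exact permutation p = 0.1). Neither gene had overlapping groups, nor had 4 more of the 93 (6 in all, 6.45%, beside 7.56% of all genes), namely Snap23 and Unc13d with the cKO below and Slc17a5 and Pcsk1 with the cKO above, none of them with an uncorrected p under 0.05. The 21 endocytosis genes and the 11 dense core vesicle genes, the class of vesicle on which CAPS proteins act, held no gene with an uncorrected p under 0.05, with median log2 fold changes of 0.01 and -0.01.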

How the data were processed

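RNA was extracted with Trizol from E14.5 midbrains of embryos from 4 litters, and paired-end reads were mapped on GRCm38.p4. The submitters' processing notes name TopHat 1.0.14, Bowtie2 2.1.0, HTSeq 0.6.1p1 and DESeq 1.10.1, whereas the study's methods name DESeq2. Use of strand in counting is not given in the sources used here. The table that the authors deposited holds, for 26852 genes, the mean signal per group, in read counts divided by a size factor per library, and 3 lines that name no gene (31.8% of the mean counts), left out here. Its ratio and p-value columns hold the authors' own comparison and were not used.

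Counts per library were recovered by searching for the whole numbers that give each printed mean to all its digits. Every combination was searched up to a group mean of 10000, and above it those with each library within 25% of the mean. A single answer was found for 26843 genes (99.97%), all 48 release genes included, which hold 97.3% of the normalized counts. The search was tested on simulated data. Size factors recomputed from the recovered counts differed by at most 0.00332% from those recovered. The labels do not tie the recovered libraries to single samples, and nothing says that the pools are independent of litter or balanced in embryo sex.

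The 17168 genes whose normalized count averaged 10 or more entered a limma fit (version 3.58.1, R 4.3.3, voom weights) that used the size factors above and genotype as its only term, two-sided, with Benjamini-Hochberg adjustment over all of them. Exact permutation tests were two-sided. Merged exons came from GENCODE M21 on GRCm38. Values in every library are given for release genes with an uncorrected p under 0.05, those whose groups do not overlap, the most abundant per kilobase of each role, and genes of the wider pathway with an uncorrected p under 0.05. Snap25, Syt1 and Syt13, and Snap23, Unc13d, Slc17a5 and Pcsk1 by name, were added after their values were seen. The release genes, other lists and tests were chosen with earlier results of these data known.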

Additional observations from a re-analysis of the deposited data

How the results depend on the processing

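No release gene passed an adjusted p of 0.05 in limma under any of the 13 alternatives run, which changed the minimum mean count, the scaling, the model or the libraries included. The count with an uncorrected p under 0.05 was 1 in each but one of them, and it was 1 to 2 with a library left out, the higher value without control replicate b (Syt13 and Cadps2). Cadps2 was the gene in each setting except 2. Without cKO replicate b the gene was Synpr (log2 fold change 0.22) and without control replicate a it was Sv2c (-0.19). The log2 fold change of Cadps2 then was -0.191 and -0.186, past the threshold in neither case. Of 624 values of single genes under these alternatives, 619 kept their side of the uncorrected threshold, and the 5 that did not are those of Cadps2, Syt13, Synpr and Sv2c named above. Genes whose groups did not overlap numbered 1 with upper quartile scaling and 1 with total recovered reads, and 3 to 7 with a library left out, where fewer libraries make it easier for groups not to overlap. The median log2 fold change of the release genes lay between -0.045 (without cKO replicate a) and 0.045 (without control replicate b). Of the other release genes, 1 had an uncorrected p under 0.05 with a minimum mean of 1, with total reads and with limma-trend at a pseudocount of 1 or 10, and 1 to 3 with a library left out. Over all genes, 0 to 4 passed the adjusted threshold with a library left out, and 335 to 654 passed without correction. The 4 came without control replicate a, and none of them was a release gene. They included the Y-linked genes Kdm5d, Uty and Ddx3y, and a difference in embryo sex between the pools was not tested. No paired analysis was possible because the deposited columns are group means whose headings repeat the same 3 tags in both groups, and no recovered library can be tied to a tag or a sample number. Counting error alone would give a log2 SD from 0.009 for Rab3c to 0.092 for Syt2, and the SD within groups exceeded it for 47 of 48 release genes, Napa being the exception.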
